A study of Mus musculus with 18 samples.

Results

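Cell cycle and DNA replication genes were followed across sorted cells of the embryonic day 11 mouse aorta-gonad-mesonephros region (AGM), the tissue in which the first hematopoietic stem cells emerge from the dorsal aorta. The set holds 49 genes of 21881 counted. They were chosen by symbol and sorted by role into 5 G1 and G1/S cyclins, 13 genes of DNA replication and nucleotide supply, 3 cell cycle transcription factors, 15 mitotic cyclins, kinases and regulators, and 13 chromosome, centromere and spindle proteins. All embryos carried a GFP transgene (BRE-GFP, a reporter of BMP signalling) on the C57BL6 strain. AGMs were sorted either fresh or after explant culture in conditions that contain BMP and Hedgehog, with or without cyclopamine, an inhibitor of the Hedgehog pathway component Smoothened. Cells enriched for endothelium (EC; CD31+ Kit-), for hematopoietic progenitors and stem cells (HPSC; CD31+ Kit+) and for mesenchyme (MC; CD31- Kit-) were each split into a BRE-GFP negative and a positive fraction. This gives 18 libraries, 1 for each of 3 populations, 3 culture states and 2 fractions. The sources used here do not state how many embryos went into a library, the dose of cyclopamine or the length of culture.

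A dividing cell passes from growth (G1) to DNA synthesis (S), then through G2 to mitosis (M). D-type cyclins with Cdk4 and Cdk6, and then E-type cyclins with Cdk2, release E2F factors from the retinoblastoma protein, and E2F switches on genes for replication licensing and nucleotide synthesis. Later, factors that include B-Myb (Mybl2) and FoxM1 switch on the genes of mitosis, many through a promoter element called CHR (cell cycle genes homology region) that works next to CCAAT boxes. In the AGM, emerging hematopoietic clusters are a site of cell division in the aortic wall.

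Libraries held 3041249 to 21972063 counts in genes (median 12564706) and 10297 to 18816 detected genes, with the lowest of both in HPSC cyclopamine negative. Levels below are CPM, that is gene counts relative to library size, scaled by the trimmed mean of M values. All 49 members passed the filter on low counts, as did 16231 genes in all. The 882 values of the members included 4 zeros: Ccnd1, Ccnd3 and Foxm1 in HPSC cyclopamine negative, where 3 counts equal 1.13 CPM, and Ccne1 in EC cyclopamine negative, where 3 counts equal 0.390 CPM. The gating genes followed the labels. Pecam1, which encodes CD31, lay at 93.7 to 1683 CPM in EC and 212 to 2682 in HPSC against 3.0 to 11.5 in MC, and Kit lay at 450 to 1135 CPM in HPSC, above every EC (42.6 to 220) and MC library (20.9 to 187). The libraries also held transcripts of other cell types. The summed level of 8 mesenchymal markers was 763 to 5748 CPM in EC, 2120 to 5869 in MC and 199 to 667 in HPSC. Of the 8 markers of granulocytes and mast cells, the sum was 1726 to 13039 CPM in HPSC, 127 to 4502 in EC and 40.7 to 253 in MC. These 8 include Kit, which was used to sort the populations, so part of that difference comes from the gate. The 8 macrophage markers summed to 869 to 6755 CPM in EC, 581 to 4814 in HPSC and 50.5 to 170 in MC. In the 3 EC negative libraries that sum was above the sum of the 8 endothelial markers (6755 against 349 CPM fresh, 3311 against 643 in explants and 1884 against 699 with cyclopamine). No marker of these lists was at 0 over a whole population, and their part in the differences between populations was not tested. Because RNA was pooled from many cells, fewer cells in cycle and less of a transcript per cycling cell cannot be told apart.

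The promoters of the replication genes and of the mitotic genes hold different sequence elements. RefSeq promoters (build GRCm38.p6, 250 bases before to 50 after the start) were found for 38 of the 49. The stretches upstream of the start of 2 replication genes, Rrm1 and Rrm2, which encode the large and small subunit of ribonucleotide reductase, are shown beside 2 genes of mitotic chromosomes, Top2a (topoisomerase II alpha, which untangles sister chromatids) and Mki67 (Ki-67, the coat protein of mitotic chromosomes). Capitals mark the letters searched for on both strands: CHR as TTTGAA or TTCGAA, the CCAAT box as CCAAT, and E2F as TTCGCGC or TTGGCGC or TTCCCGC or TTGCCGC; a match on the other strand reads as its reverse complement, so ATTGG is a CCAAT box. All 4 are printed 5′ to 3′ in the direction of transcription: Rrm1 from chr7:102441445-102441694 (plus strand), Rrm2 from chr12:24708004-24708253 (plus), Top2a from chr11:99024190-99024439 (minus) and Mki67 from chr7:135716380-135716629 (minus).
Rrm1: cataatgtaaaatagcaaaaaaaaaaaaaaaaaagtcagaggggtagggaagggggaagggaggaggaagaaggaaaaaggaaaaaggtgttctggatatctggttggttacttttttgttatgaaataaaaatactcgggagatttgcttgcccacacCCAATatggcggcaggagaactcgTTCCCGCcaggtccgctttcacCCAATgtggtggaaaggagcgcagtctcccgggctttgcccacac
Rrm2: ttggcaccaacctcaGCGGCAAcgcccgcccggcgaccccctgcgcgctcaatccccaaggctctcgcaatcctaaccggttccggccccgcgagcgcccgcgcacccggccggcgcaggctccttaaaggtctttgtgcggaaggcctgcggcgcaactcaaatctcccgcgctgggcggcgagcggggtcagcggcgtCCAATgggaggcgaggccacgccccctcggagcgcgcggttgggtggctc
Top2a: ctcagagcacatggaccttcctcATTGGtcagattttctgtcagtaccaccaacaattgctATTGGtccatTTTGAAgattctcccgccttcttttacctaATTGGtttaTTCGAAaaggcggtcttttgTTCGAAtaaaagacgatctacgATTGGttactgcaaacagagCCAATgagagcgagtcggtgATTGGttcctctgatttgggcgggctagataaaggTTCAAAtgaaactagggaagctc
Mki67: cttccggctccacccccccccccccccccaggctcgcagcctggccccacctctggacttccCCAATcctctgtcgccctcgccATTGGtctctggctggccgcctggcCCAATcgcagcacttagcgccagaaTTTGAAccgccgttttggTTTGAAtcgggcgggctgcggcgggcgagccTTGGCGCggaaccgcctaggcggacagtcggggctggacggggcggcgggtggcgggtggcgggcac

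Rrm1 has 2 CCAAT boxes and 1 E2F match, and Rrm2 1 of each, with no CHR in either. Top2a has 4 CHR matches and 6 CCAAT boxes and no E2F match. Mki67 has 2 CHR matches, 3 CCAAT boxes and 1 E2F match. The same split held over the roles: a CHR was present in 10 of 12 mitotic regulators and 8 of 11 spindle and chromosome genes, but in 2 of 11 replication genes (Mcm2 and Mcm7), against 19.2% of all 32851 RefSeq mouse promoters. An E2F match was present in 8 of 11 replication genes (Mcm3, Mcm5, Mcm6, Mcm7, Rrm1, Rrm2, Cdc6 and Cdt1), in 3 of 12 mitotic regulators and in 1 of 11 spindle and chromosome genes, against 9.57% of all promoters. CCAAT was found in 37.4% of all promoters and in 8 of 11, 11 of 12 and 8 of 11 members of these roles. A CHR with 2 or more CCAAT boxes was found in 2.31% of all promoters in 8 of 12 mitotic regulators and in 5 of 11 spindle and chromosome genes. TTCGAA reads the same on both strands, and a TTGGCGC can share letters with an ATTGG. These are matches of letters in a window, not measured binding. Members were counted by gene, while the shares over all promoters are by promoter. A gene with several promoters, such as Ccnd3, had more chances to match, so these shares are unlike measures.

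Per kilobase of exon, a reductase subunit and 3 subunits of the MCM helicase were the most abundant members. Length here is that of all annotated exons of a gene merged over its transcripts, so the order also depends on the annotation. Over the 18 libraries the median level of Rrm2 was 181 CPM per kb, and those of the MCM helicase subunits Mcm3, Mcm5 and Mcm4 were 125, 117 and 112. Cyclin B2 (Ccnb2, 90.8) and Top2a (85.3) led the mitotic genes, and cyclin D2 (Ccnd2, 81.3) led the G1 cyclins. Lowest were the replication licensing factor Cdt1 (5.10), cyclin D3 (Ccnd3, 4.50), Plk4, the kinase that starts centriole duplication (4.48), and Mybl2 (3.08).

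The members varied less between libraries than the other tested genes within their range of mean level. Those genes were not matched to the members in level within that range, and abundance itself may affect the spread. The SD of log2 CPM over the 18 libraries had a median of 0.66 for the 49 members and 0.99 for the 8248 other tested genes whose mean level lay within the members' range (17.5 to 833 CPM). Within the set the median SD was 0.48 for the replication genes (lowest in Mcm4 at 0.40) and 1.88 for the G1 cyclins (highest in Ccnd1 at 2.10). The G1 cyclin value rests on the zeros: it was 0.76 without HPSC cyclopamine negative, 0.90 without EC cyclopamine negative and 0.70 without both, a setting chosen after seeing the data. Ccnd1 then had an SD of 0.96 and the replication genes a median of 0.46. Without both libraries the medians of all members and of the other genes were 0.58 and 0.69. Replication genes correlated with each other with a median Pearson r of 0.33 over 78 pairs, mitotic regulators with 0.29 over 105 and spindle genes with 0.35 over 78, while the G1 cyclins gave 0.14 over 10. Each r is over the same 18 libraries, which share their depth and scaling, and is given as a description. Against the mean of the other replication, mitotic and spindle members, Bub1b (a kinase of the spindle checkpoint, 0.83), the centromere motor Cenpe (0.81) and Top2a (0.79) ran closest. E2f1 (-0.46), cyclin E2 (Ccne2, -0.23) and Ccnd2 (-0.22) ran against it. The map of all members in all libraries shows the fresh libraries high over most mitotic and spindle genes, and the G1 cyclins apart from the rest.

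**Figure D1:**
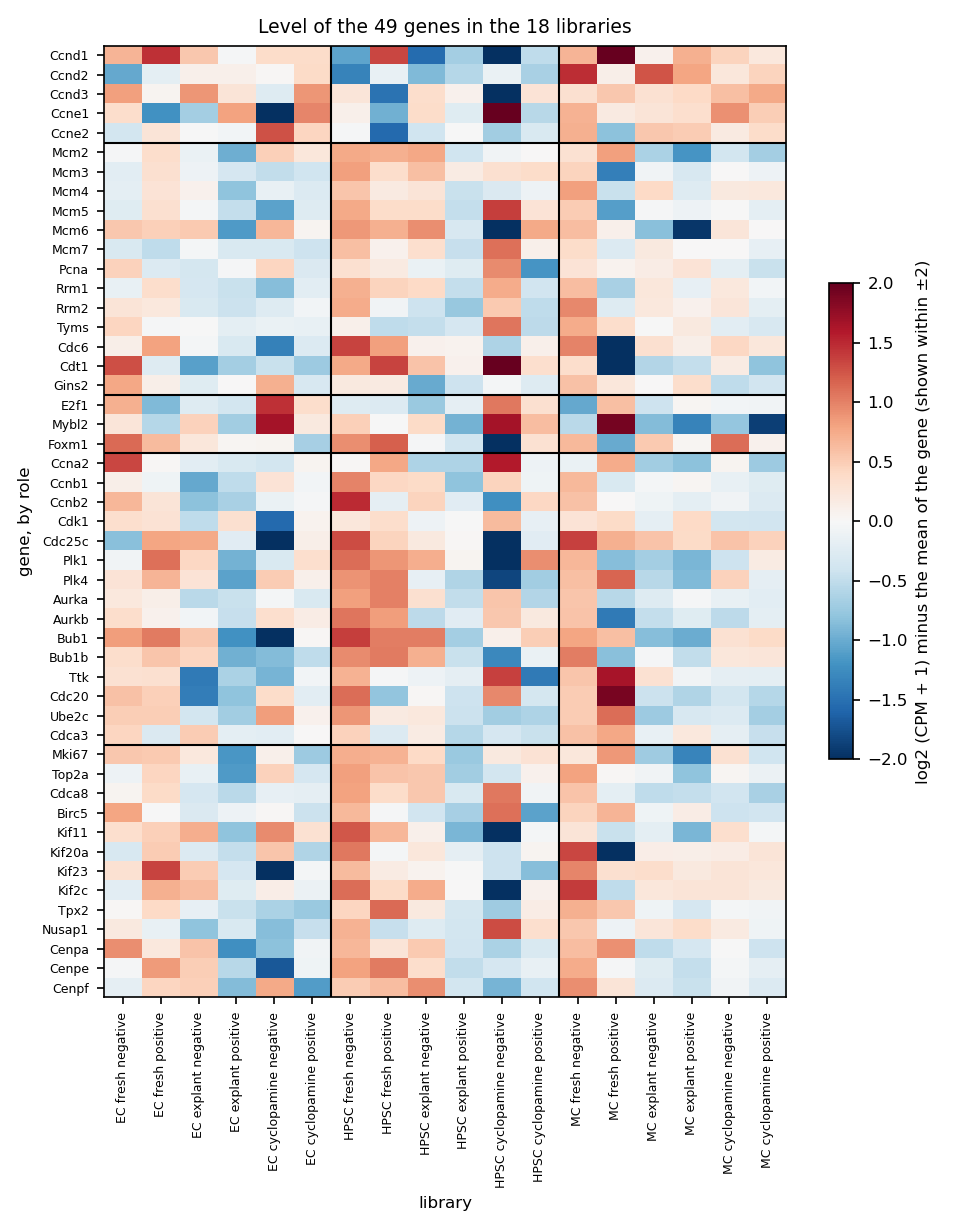
Level of each of the 49 members (rows, by role) in each of the 18 libraries (columns), as log2 (CPM + 1) minus the gene's mean over the libraries, red above and blue below, with the colours limited at 2 log2 units either way. Mitotic and spindle genes are mostly above their mean in the 6 fresh libraries.

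Among the G1 cyclins, cyclin D2 set HPSC apart from MC. Cyclin D2, the main D-type cyclin here, was lowest in HPSC, intermediate in EC and highest in MC. In EC it was at 361, 641, 789, 789, 742 and 953 CPM (fresh negative, fresh positive, explant negative, explant positive, cyclopamine negative and cyclopamine positive). In the same order it was at 291, 658, 397, 492, 669 and 467 CPM in HPSC and at 2045, 798, 1757, 1260, 858 and 993 in MC. Every MC library lay above every HPSC library, whereas EC overlapped both. The fit (edgeR's quasi-likelihood test, Benjamini-Hochberg adjustment) held all 18 libraries, EC included, in 6 blocks of matched culture and fraction. In it Ccnd2 fell by 1.39 ± 0.32 (SE) on the log2 scale in HPSC against MC (edgeR adjusted p = 0.0114). Ccnd2 was lower in HPSC in 6 of 6 matched pairs with MC. It was the 1 member of 49 that edgeR called in any comparison between populations, cultures or fractions, and a call was made for 9.95% of all genes tested between HPSC and MC. Groups that did not overlap, with HPSC lower, were seen for 4.85% of all genes. Its MC to EC difference (0.88 ± 0.32, adjusted p = 0.215) and HPSC to EC difference (-0.51 ± 0.31, adjusted p = 0.680) were not called by edgeR. Ccnd2 lies at chr6:127125162-127152193 (minus strand, mm10), and the counts cover the whole gene. The libraries are not stated to be separate animals, and there is 1 per combination of population, culture and fraction. All p-values here therefore weigh a difference against how much it changed from block to block, where the other conditions differ. That spread mixes changes of the effect between conditions with noise of single libraries, which may be technical, and these cannot be told apart. The call held in 18 of 18 fits that left out 1 library (adjusted p 0.00851 to 0.0421) and was lost when the share of reads outside genes was added as a covariate (-1.71, adjusted p = 0.065).

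Ccnd2 made up most of the D-cyclin transcript in every library. Per kilobase it accounted for 67.4% to 87.8% of the summed Ccnd1, Ccnd2 and Ccnd3 level in EC (median 84.3%), 77.4% to 100% in HPSC (84.7%) and 68.9% to 93.7% in MC (88.1%). These shares depend on the merged exon lengths, 4709 bases for Ccnd1, 9409 for Ccnd2 and 8775 for Ccnd3. Cyclin D1 (Ccnd1), the D cyclin most tied to mitogen signals, lay at 0, 18.9 and 90.6 CPM in HPSC (lowest, median, highest), at 34.7, 48.7 and 98.3 in EC and at 37.5, 52.7 and 155 in MC. HPSC were lower than the matched EC library in 6 of 6 pairs and lower than the matched MC library in 6 of 6, though the ranges overlapped (lower in every pair with EC were 3.19% of all genes, with MC 10.8%). The differences were -1.54 ± 0.65 from EC (edgeR adjusted p = 0.458) and -1.65 ± 0.65 from MC (adjusted p = 0.119), neither called by edgeR. The difference from MC was called by DESeq2 (-1.65, adjusted p = 0.0195), by limma-voom (-1.74, adjusted p = 0.0471) and by edgeR without each population's library with the fewest genes (-1.22, adjusted p = 0.0436). In HPSC it was at 0 in the library of lowest depth, which that last fit leaves out. Ccnd3, which lymphoid and erythroid cells use, was also lower in HPSC in every pair with EC (0, 35.6 and 40.5 CPM against 26.3, 47.2 and 59.5), and lay at 39.4, 44.5 and 54.4 in MC.

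The E cyclins, which carry the cell from G1 into S, gave less separation. Cyclin E2 lay at 15.2, 36.2 and 46.3 CPM in HPSC, 35.8, 51.2 and 114 in EC and 26.0, 63.6 and 76.9 in MC. It was lower in HPSC than in MC in 6 of 6 pairs (-0.75 ± 0.40, edgeR adjusted p = 0.257). Cyclin E1 (Ccne1) lay at 9.10, 18 and 111 CPM in HPSC, 0, 17.7 and 37.7 in EC and 21.4, 25.4 and 36.0 in MC. The highest and the lowest value were both in cyclopamine negative libraries, and the 3 populations overlapped.

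**Figure D2:**
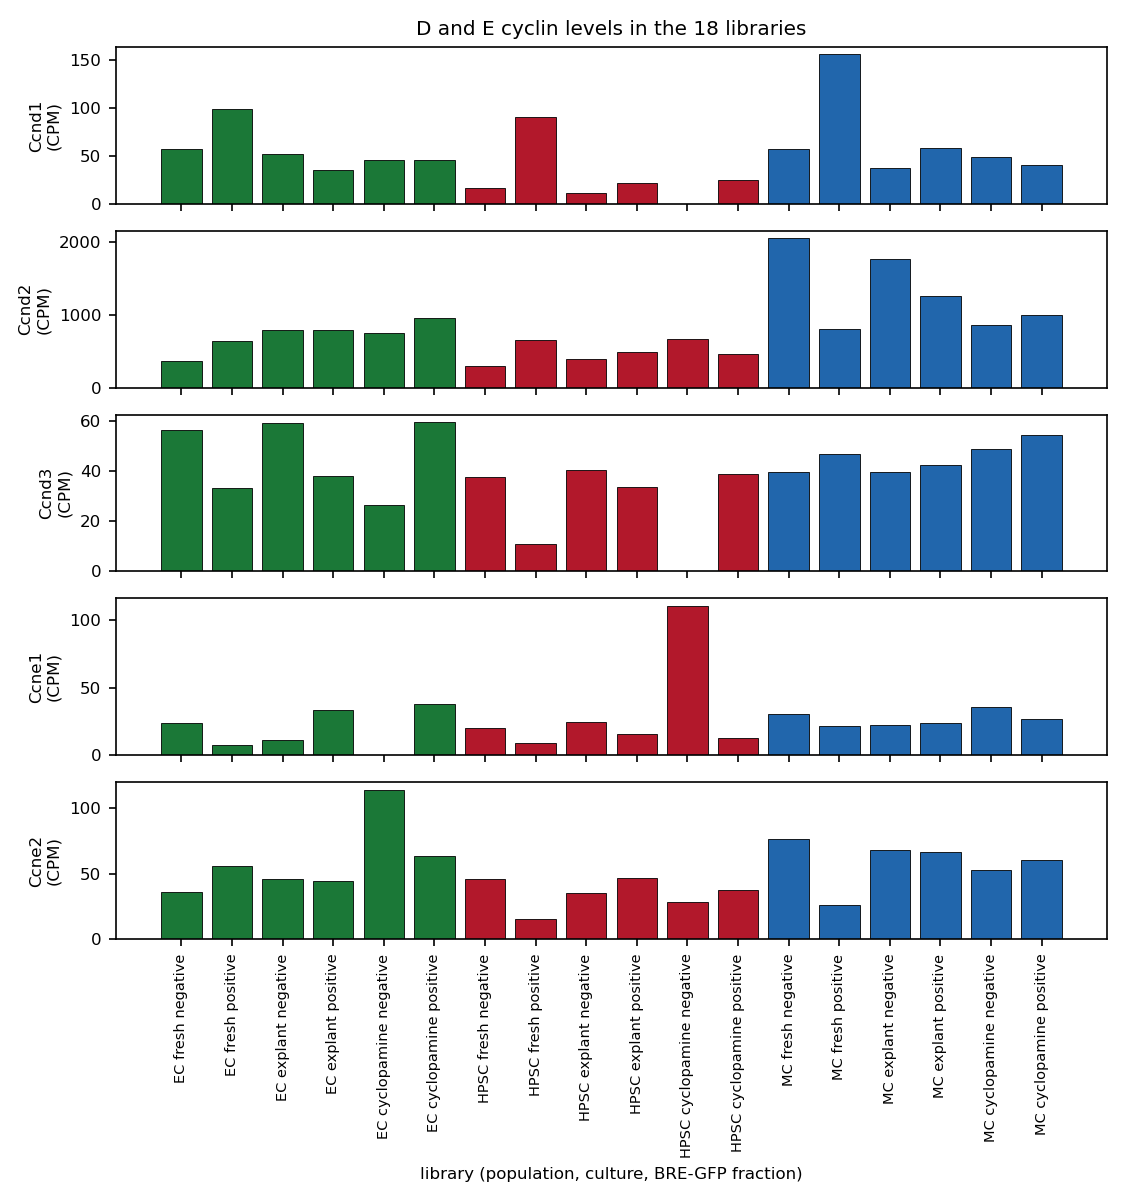
Level of each of the 5 D and E cyclins in CPM (1 panel per gene, vertical axis from 0) in each of the 18 libraries (horizontal axis, by population, culture and BRE-GFP fraction; 1 bar is 1 library, with no error bar). All 6 MC libraries lie above all 6 HPSC libraries for Ccnd2, from 798 against 669 at the nearest point.

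Replication genes and mitotic regulators had fold changes mostly above 0 in HPSC against EC. Of the 49 members, 34 had a fold change above 0 in HPSC against EC, where 41.7% of all tested genes did, and the members' median log2 fold change was 0.19 against -0.17 for all tested genes. The edgeR test called none (0.32% of all genes were called), with 6 members at an unadjusted p under 0.05 (9.32% of all genes) and none called by DESeq2 or limma-voom. Replication genes were above 0 in 11 of 13 (median 0.30), mitotic regulators in 12 of 15 (0.28), spindle and chromosome genes in 9 of 13 (0.14), transcription factors in 1 of 3 (-0.12) and G1 cyclins in 1 of 5 (-0.85). By pair of libraries the members higher in HPSC ranged from 23 of 49 in cyclopamine positive (median -0.03) to 35 in fresh negative (0.51). The mean log2 level of the replication genes was higher in HPSC in 6 of 6 pairs and that of the G1 cyclins lower in 6 of 6.

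Among the replication genes, subunits of the MCM helicase, which unwinds DNA at the fork, had the lowest p in HPSC against EC, and Cdt1 the highest fold change. Mcm3 lay at 534, 609 and 838 CPM in HPSC and 339, 394 and 595 in EC, with the HPSC library higher in 6 of 6 pairs (0.61 ± 0.25, edgeR adjusted p = 0.451). Mcm7 lay at 152, 246 and 453 CPM in HPSC and 148, 170 and 204 in EC (0.63 ± 0.23, adjusted p = 0.377). HPSC were high for both, and both ranges overlapped those of EC. Cdt1, which loads the helicase, lay at 18, 27.7 and 80.3 CPM in HPSC, 7.47, 11.3 and 43.2 in EC and 3.4, 11.5 and 22.0 in MC. Its differences from EC (1.30 ± 0.60, adjusted p = 0.515) and MC (1.53 ± 0.60, adjusted p = 0.117) were not called by edgeR, and it was higher in HPSC than in MC in 6 of 6 pairs. In each pair HPSC were above EC also for Mcm5, for Cdc6, which loads the helicase with Cdt1, and for Mki67. Members higher or lower in every pair were 4 and 2 of 49, against 2.39% and 3.19% of all tested genes.

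Genes of mitosis overlapped between the populations. The kinase Aurora A (Aurka), which matures the spindle poles, lay at 96.1, 196 and 291 CPM in HPSC, 99.2, 129 and 167 in EC and 97.9, 127 and 213 in MC (HPSC to EC 0.48 ± 0.27, edgeR adjusted p = 0.644). Cyclin B1, the partner of Cdk1 at mitotic entry, lay at 60.7, 141 and 213 CPM in HPSC, 52.1, 101 and 129 in EC and 86.5, 100.1 and 167 in MC. Cdc25c lay at 0.754, 32.1 and 75.1 CPM in HPSC, 5.33, 28.7 and 52.3 in EC and 39.0, 44.6 and 78.1 in MC. All 3 genes had ranges that overlapped between populations, with the HPSC median of Aurka and cyclin B1 the highest. The checkpoint kinase Ttk lay at 23.0, 60.0 and 163 CPM in HPSC, 22.9, 50.1 and 78.7 in EC and 54.5, 68.5 and 198 in MC. Nusap1 in HPSC spanned 132, 191 and 453 CPM, and Tpx2 lay at 123, 228 and 446 in HPSC, 120, 163 and 266 in EC and 160, 194 and 333 in MC. For Mki67 the values were 171, 367 and 478 CPM in HPSC, 128, 321 and 418 in EC and 115, 279 and 526 in MC, and the order of the medians was within the spread of each population. Mcm4, the member that varied least, lay at 298, 419 and 598 CPM in HPSC, 233, 360 and 492 in EC and 296, 468 and 714 in MC.

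Between HPSC and MC, 29 members had a fold change above 0 (36.6% of all genes did), with a median of 0.06 against -0.38 for all genes. This balance turned with upper-quartile scaling, under which 28 members were below 0 and the median was -0.06 (-0.08 with the covariate), while the median of all genes shifted by -0.13 to -0.50. Besides Ccnd2, 6 members had an unadjusted p under 0.05, as did 25.1% of all genes: Cdca8, Cdt1, Mcm2, Mcm3 and Aurkb above 0 and Ccnd1 below it. Cdca8 (borealin) and Aurkb (the Aurora B kinase) belong to the chromosomal passenger complex, which corrects attachments to the spindle. Cdca8 lay at 142, 241 and 366 CPM in HPSC against 112, 131 and 261 in MC (0.68 ± 0.25, edgeR adjusted p = 0.0906), and Aurkb at 79.9, 150 and 244 against 42.7, 89.7 and 172 (0.67 ± 0.31, adjusted p = 0.183). HPSC were higher in every pair for Cdca8, Mcm3, Cdt1 and cyclin A2 (Ccna2), which binds Cdk2 in S phase, against 6.07% of all genes. They were lower in every pair for Ccnd1, Ccnd2, Ccne2, Cdc25c (the phosphatase that activates Cdk1) and Kif23 (a motor of cytokinesis), against 10.8%. DESeq2 called 4 members here (Ccnd1, Ccnd2, Cdca8 and Cdt1) and limma-voom 2 (Ccnd1 and Ccnd2).

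Between MC and EC the members went both ways, from -0.78 to 1.02. In MC 33 members had a fold change above 0, where 60.8% of all genes did, and the median was 0.11 against 0.20 for all genes. No member was called by edgeR (2.54% of all genes were), 1 had an unadjusted p under 0.05 (Ccnd2; 11.4% of all genes), and DESeq2 and limma-voom called none. By pair of libraries the members higher in MC ranged from 21 of 49 in cyclopamine positive (median -0.08) to 41 in explant positive (0.33). MC were higher than EC in 6 of 6 pairs for Ccnd2, Mcm7, Tpx2 and Nusap1, a protein that bundles spindle microtubules, as for 5.83% of all genes, and lower for the spindle motor Kif11, as for 4.97%. Nusap1 lay at 169, 211 and 266 CPM in MC and 101, 140 and 209 in EC (0.56 ± 0.29, edgeR adjusted p = 0.510), with overlap. The comparisons HPSC against EC and MC against EC share the 6 EC libraries. Of the transcription factors, E2f1 lay at 17.9, 35.9 and 95.4 CPM in EC, 19.9, 29.0 and 71.3 in HPSC and 16.2, 32.4 and 52.1 in MC. Foxm1 lay at 16.9, 30.5 and 61.1, at 0, 30.6 and 63.8, and at 13.2, 34.4 and 60.6 CPM in the same order. Mybl2 lay at 7.80, 15.6 and 44.3, at 6.41, 18.3 and 44.1, and at 2.89, 7.11 and 52.7. None of the 3 separated the populations.

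**Figure D3:**
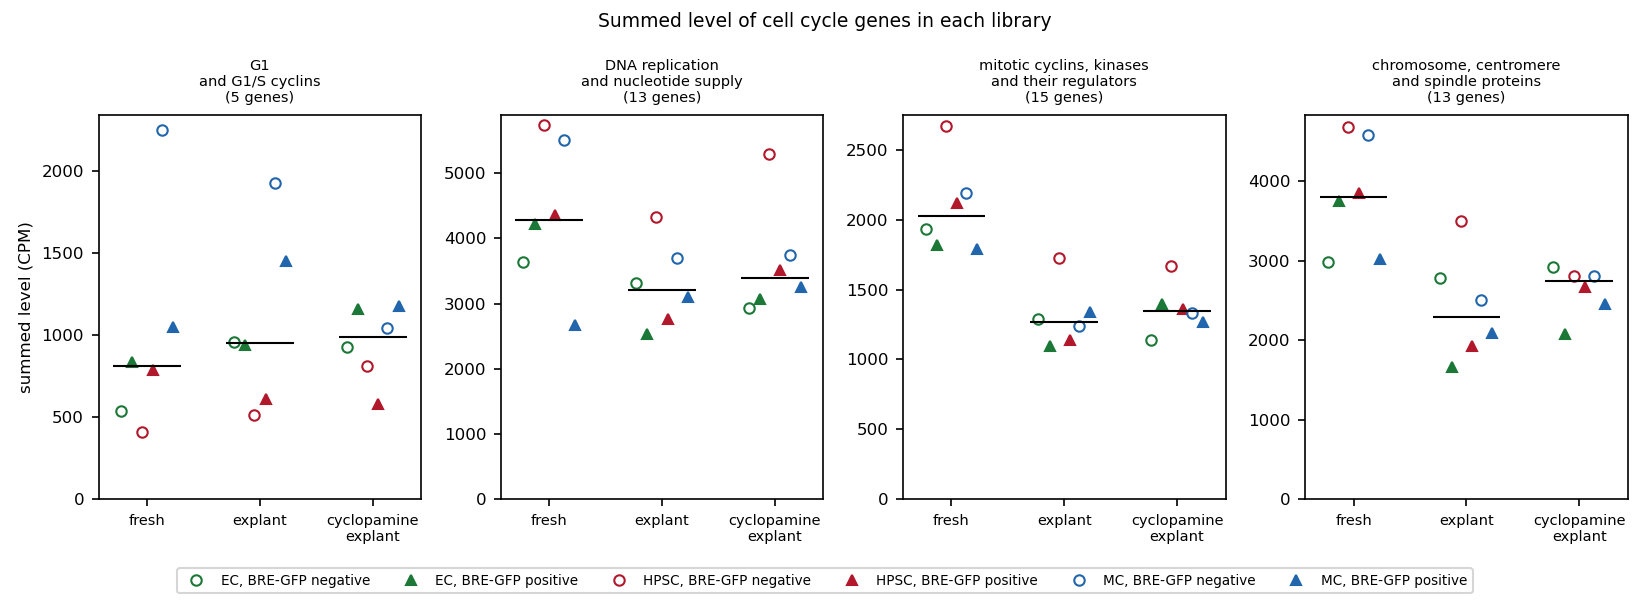
Summed level in CPM (vertical axis, from 0) of the G1 cyclins, replication genes, mitotic regulators and spindle and chromosome genes, 1 panel each, by culture state. Each point is 1 of 18 libraries, coloured by population and open for BRE-GFP negative or filled for positive, and each line is the median of 6. The mitotic regulators lie at 1794 to 2674 CPM in fresh libraries and at 1096 to 1728 in explant libraries.

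Genes of mitosis were lower after explant culture than in fresh cells, in all 3 populations and both fractions. The summed level of the 15 mitotic regulators was 1794, 2027 and 2674 CPM in the fresh libraries (lowest, median, highest of 6) and 1096, 1266 and 1728 in the explant libraries, so that the ranges did not overlap. The 13 spindle and chromosome genes summed to 2989, 3800 and 4684 CPM fresh and 1667, 2292 and 3496 in explants. The mean log2 level of each of these roles was lower in the explant library of 6 of 6 matched pairs. Of the 49 members, 45 had a fold change below 0, where 40.2% of all tested genes did, and the members' median was -0.61 against 0.18 for all genes. All 15 mitotic regulators (median -0.69), all 13 spindle and chromosome genes (-0.62), all 13 replication genes (-0.37) and all 3 transcription factors (-0.65) were below 0. The G1 cyclins stood apart, with Ccnd1 alone below 0 and a median of 0.24.

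No single member passed the adjusted threshold between explant and fresh: edgeR called 0 of 49, and 0.136% of all genes. At an unadjusted p under 0.05 edgeR had 16 members, all lower, which is 32.7% of the set against 8.58% of all tested genes in either direction and 1.62% lower. DESeq2 called 6 (Cdc20, Cdca8, Mki67, Plk4, Tpx2 and Ube2c) and limma-voom 1 (Mki67). Lower in 6 of 6 pairs were 13 members, against 3.02% of all genes: Ccnd1, Ccna2, Ccnb2, Plk4, Bub1, Ttk, Ube2c, Mki67, Top2a, Cdca8, Birc5, Tpx2 and Cenpa. Within populations the members below 0 were 43 of 49 in EC (50.4% of all genes; median -0.56, all genes -0.01), 46 in HPSC (40%; -0.58, all genes 0.27) and 37 in MC (38.4%; -0.44, all genes 0.39). By pair of libraries they ranged from 27 of 49 in MC positive, where 36.6% of all genes were lower, to 48 in MC negative, where 46.0% were.

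Mki67 had the lowest adjusted p of the members here. Its level went from 418 to 333 CPM in EC negative (fresh to explant), from 414 to 128 in EC positive, from 478 to 381 in HPSC negative, from 468 to 171 in HPSC positive, from 339 to 176 in MC negative and from 526 to 115 in MC positive. The explant library was the lower one each time, with some overlap between the groups as a whole. The log2 fold change was -1.15 ± 0.28 (edgeR unadjusted p = 0.000652, adjusted p = 0.156), and DESeq2 gave an adjusted p of 0.00926. Top2a lay at 724, 1107 and 1375 CPM fresh and 355, 592 and 1134 in explants (-0.81 ± 0.25, edgeR adjusted p = 0.282). Tpx2, which activates the Aurora A kinase on the spindle, lay at 206, 283 and 446 CPM fresh and 147, 170 and 232 in explants (-0.72 ± 0.24, adjusted p = 0.302). Explants were low for both genes, with the highest explant library above the lowest fresh one.

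Regulators of mitotic entry and exit lay low in explants as well. Ccna2 lay at 48.2, 71.1 and 134 CPM fresh and 29.2, 34.0 and 45.1 in explants (-1.10 ± 0.42, edgeR adjusted p = 0.410). Plk4 lay at 32.7, 47.1 and 61.5 CPM fresh and 12.3, 17.7 and 32.5 in explants (-1.33 ± 0.51, adjusted p = 0.411). These were the 2 members whose fresh and explant libraries did not overlap, with explants lower, as in 0.32% of all tested genes. Ube2c and Cdc20, which work with the anaphase promoting complex to destroy cyclin B, lay at 81.5, 102 and 157 and at 17.2, 45.1 and 117 CPM fresh. In explants Ube2c lay at 42.8, 54.0 and 83.0 CPM and Cdc20 at 11.0, 21.0 and 30.9 (-1.01 ± 0.34 and -1.32 ± 0.49, edgeR adjusted p = 0.316 and 0.386). The checkpoint kinase Bub1 lay at 113, 142 and 195 CPM fresh and 31.2, 43.1 and 152 in explants, and the centromere histone Cenpa at 74.5, 101 and 123 against 26.9, 49.6 and 95.5.

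Among the replication genes the explant difference was uneven. Mcm2 lay at 166, 246 and 298 CPM fresh and 73.2, 118 and 288 in explants (-0.92 ± 0.31, edgeR adjusted p = 0.316), and Rrm2 at 435, 615 and 1021 against 308, 407 and 605 (-0.57 ± 0.21, adjusted p = 0.381). For Mcm7 and Mcm3 the fold changes were -0.03 ± 0.22 and -0.12 ± 0.24. Ccnd1 was lower in 6 of 6 explant pairs (-1.04 ± 0.59, adjusted p = 0.688), whereas Ccnd2 was at 0.27 ± 0.28. The summed G1 cyclins lay at 411, 810 and 2250 CPM fresh and 509, 948 and 1924 in explants.

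Read assignment and the cell types in the libraries differed with culture as well. The share of reads outside annotated genes was 21.7% to 42.0% in fresh libraries (median 36.6%), 35.0% to 49.4% in explants (44.4%) and 19.5% to 33.0% with cyclopamine (26.8%). With that share as a covariate, 35 of 49 members were below 0 in explants and the median was -0.36. The sum of the 8 mesenchymal markers was 338, 982 and 5482 CPM fresh, 199, 3627 and 5470 in explants and 480, 3890 and 5869 with cyclopamine, and the sum of 8 macrophage markers was 122, 861 and 6755, 75.6, 1315 and 3311, and 50.5, 1366 and 4814. No marker of either list was at 0 over a whole culture state, and their part in the difference was not tested.

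**Figure D4:**
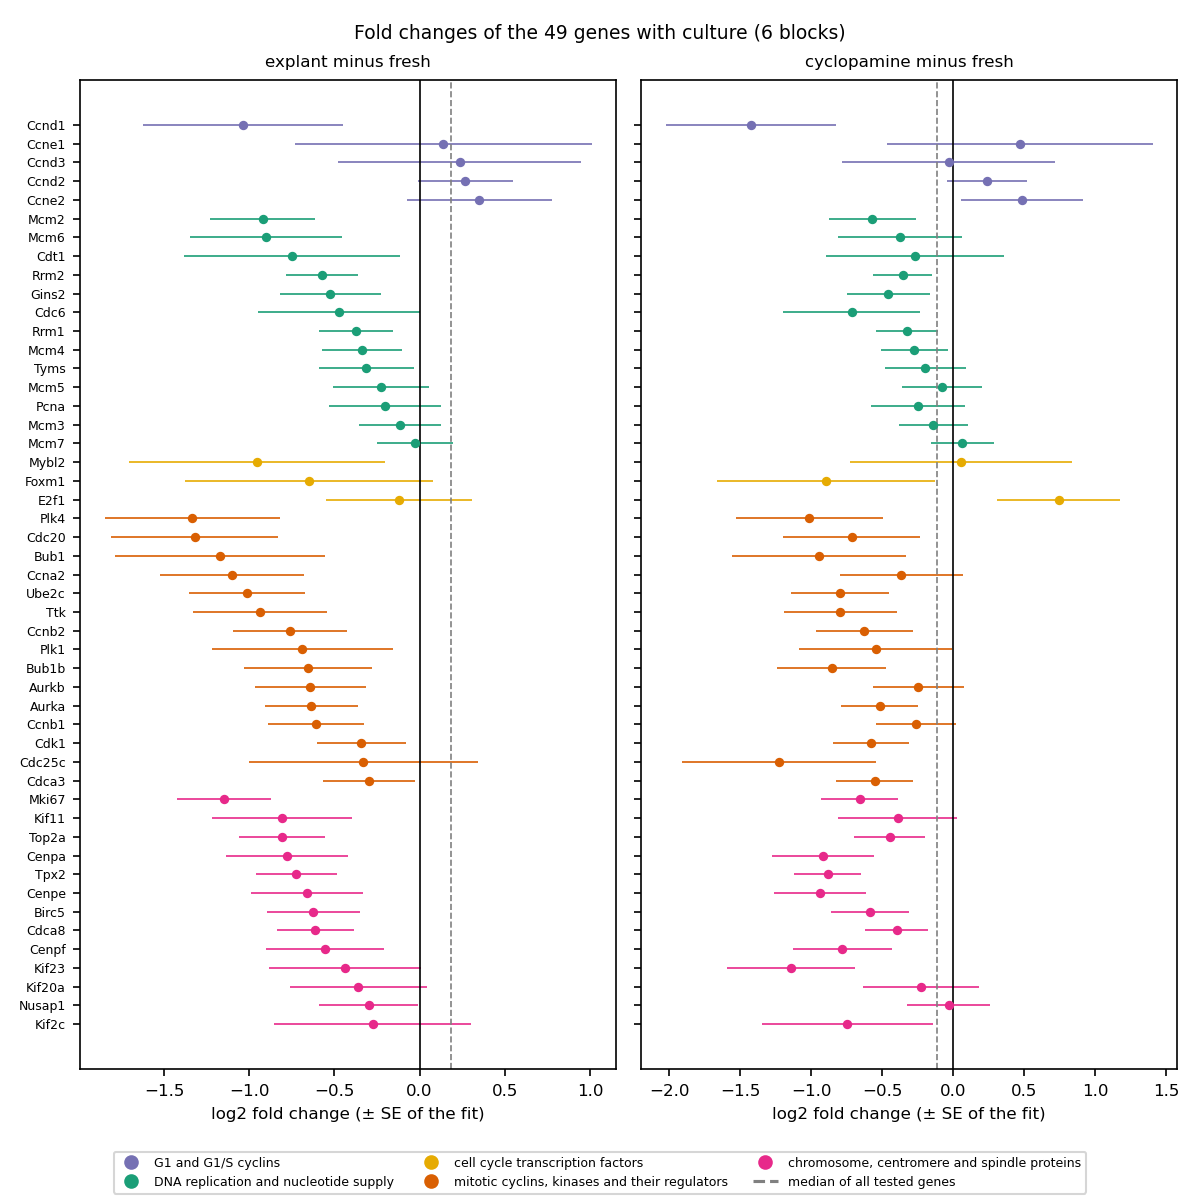
Log2 fold change (horizontal axis) of each of the 49 members, coloured by role, for explant against fresh (left) and cyclopamine against fresh (right), with bars for 1 SE of the edgeR fit; the solid line is 0 and the dashed line the median of all tested genes. All 28 mitotic, spindle and chromosome genes lie below 0 in both panels, which share the fresh libraries.

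Cyclopamine did not separate from plain explant culture in these genes. Against explants, 32 of 49 members were above 0 (34.2% of all tested genes were) with a median of 0.13, where the median of all genes was -0.27. The edgeR test called no member and no gene at all (0%), and no member had an unadjusted p under 0.05, where 8.13% of all genes did. DESeq2 and limma-voom called no member either. E2f1 had the lowest p, at 32.2, 43.1 and 95.4 CPM with cyclopamine and 19.9, 27.2 and 35.1 in explants (0.86 ± 0.43, adjusted p = 0.666). Cdc20 was the 1 member higher in 6 of 6 pairs, as were 1.32% of all genes. With an SE of 0.21 to 0.87 log2 units per member, these p-values do not show that the cultures were alike. Within populations 28 members were above 0 in EC, 24 in HPSC and 28 in MC, against 38.5%, 35.3% and 46.3% of all genes, with medians of 0.10, -0.03 and 0.05. The direction turned with the share of reads outside genes as a covariate (median -0.28), and within MC also with upper-quartile scaling (-0.074).

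Against fresh cells, cyclopamine cultures had 43 of 49 members below 0 (55.9% of all genes were), with a median of -0.46 against -0.12 for all genes. This comparison shares its 6 fresh libraries with that of explants. All 15 mitotic regulators (median -0.63) and all 13 spindle genes (-0.66) were below 0, and 12 of 13 replication genes were (-0.27). The edgeR test called none of the members (0.129% of all genes were called), with 11 at an unadjusted p under 0.05, all lower (7.21% of all genes in either direction, 3.39% lower). DESeq2 called 1 (Tpx2) and limma-voom none. Tpx2 lay at 120, 161 and 223 CPM with cyclopamine against 206, 283 and 446 fresh (-0.89 ± 0.24, edgeR adjusted p = 0.296) and was lower in 6 of 6 pairs, as were 2.09% of all genes. Bub1, Cenpa and Cenpe did not overlap between cyclopamine and fresh libraries, as was true of 0.197% of all genes. Cenpe lay at 49.7, 145 and 159 CPM against 159, 280 and 334 fresh, so that its nearest libraries almost met.

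Fold changes of the replication genes lay below 0 in BRE-GFP positive fractions against their negative partners, with none called. Over the 9 pairs 41 of 49 members had a fold change below 0 in the positive fraction, where 43.0% of all tested genes did, and the median was -0.28 against 0.11 for all genes. All 13 replication genes were below 0 (median -0.36), and their mean log2 level was lower in the positive fraction of 9 of 9 pairs, by 0.02 to 1.18. Their summed level was lower in 7 of 9 pairs and higher in fresh EC (4219 against 3644 CPM) and in EC with cyclopamine (3074 against 2936), and within EC 8 of 13 were below 0. The replication genes summed to 2936, 3744 and 5739 CPM in negative fractions and 2536, 3107 and 4363 in positive ones, with wide overlap. Mitotic regulators were below 0 in 12 of 15 (median -0.21), spindle and chromosome genes in 11 of 13 (-0.37), transcription factors in 3 of 3 and G1 cyclins in 2 of 5. The edgeR test called none of the members and 0.0554% of all genes. At an unadjusted p under 0.05 it had 2 (Rrm2 and Mcm7; 5.3% of all genes), and DESeq2 and limma-voom called none.

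Mcm7 was the 1 member lower in the positive fraction of 9 of 9 pairs, as were 0.345% of all genes. It lay at 170, 240 and 453 CPM in negative and 148, 175 and 225 in positive fractions (-0.43 ± 0.19, edgeR unadjusted p = 0.0373, adjusted p = 0.911). Rrm2 lay at 393, 620 and 1021 CPM against 308, 456 and 604 (-0.44 ± 0.19, unadjusted p = 0.0370, adjusted p = 0.910). The ranges of both overlapped. By pair, the members below 0 ranged from 24 of 49 in HPSC cyclopamine (32.0% of all genes) to 40 in HPSC explant (45.3%). In fresh MC 34 members were below 0, as were 61.8% of all genes, with medians of -0.65 for the members and -0.59 for all genes.

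**Figure D5:**
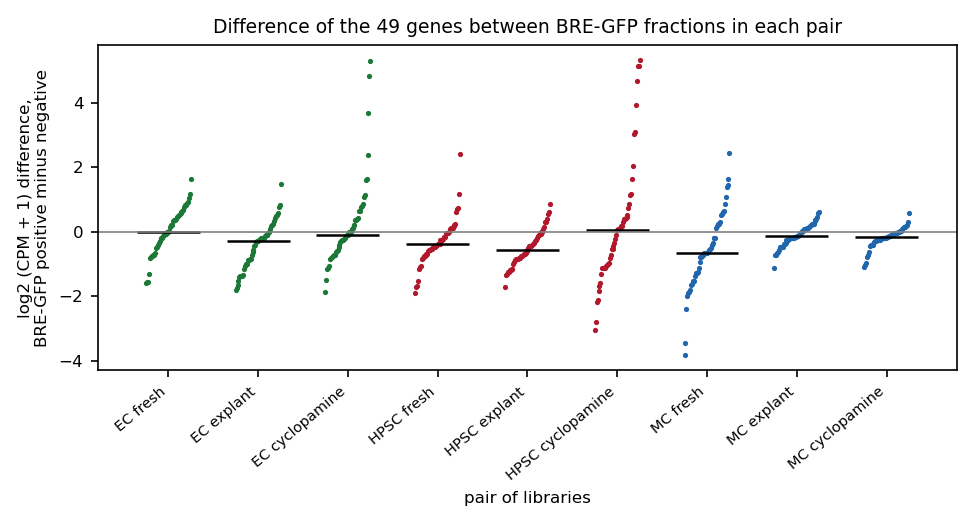
Difference in log2 (CPM + 1) between the BRE-GFP positive and negative fraction (vertical axis) for the 49 members in each of the 9 pairs of libraries (horizontal axis); each point is 1 gene, sorted by value, and each black line the median of a pair. The median lies below 0 in 8 of 9 pairs, from -0.65 in fresh MC to 0.04 in HPSC with cyclopamine.

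Within HPSC the positive fraction had 35 of 49 members below 0 (42.7% of all genes; median -0.34, all genes 0.23). With the share of reads outside genes as a covariate the HPSC median turned to 0.11. In EC 32 were (36.7%; -0.10, all genes 0.33) and in MC 37 (59.8%; -0.31, all genes -0.18). Ccnd1 went the other way in HPSC, though not only there. From negative to positive EC it went from 57.1 to 98.3 CPM fresh, 51.7 to 34.7 in explants and 45.5 to 45.6 with cyclopamine. In MC it went from 56.8 to 155 CPM fresh, 37.5 to 58.4 in explants and 48.5 to 40.9 with cyclopamine. In HPSC it went from 16.4 CPM in the negative to 90.6 in the positive fraction of fresh cells. It went from 11.5 to 21.5 in HPSC explants and from 0 to 24.4 with cyclopamine. The positive fraction was the higher one in 3 of 3 pairs, as were 14.0% of all genes, and all 3 positive libraries lay above all 3 negative ones, as for 7.65% of all genes. Ccne1, Mcm7, Cdc20 and Cdca8 had all 3 positive libraries below all 3 negative ones, as for 5.21%. The log2 fold change of Ccnd1 within HPSC was 2.84 ± 1.05 (edgeR unadjusted p = 0.0175, adjusted p = 0.548), and Ccnd1 was the member that DESeq2 called. The fitted value includes the zero of the library of lowest depth and is no bound. Below 0 in HPSC at an unadjusted p under 0.05 were Birc5 (survivin, of the passenger complex), Mcm7, Rrm1, Rrm2 and Cdca8, none of them called (0.037% of all genes were called and 7.6% had such a p). Whether the fraction or culture difference varied between populations was tested for each member in 15 edgeR contrasts, some of which are the same contrast in another fit. None was called, and 3 values had an unadjusted p under 0.05 (Rrm1 in 2 contrasts and Ttk in 1).

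The fractions differed in the transcripts of other cell types too. The 8 endothelial markers summed to 57.6, 349 and 1048 CPM in negative and 65.1, 2087 and 5893 in positive fractions. The 8 granulocyte and mast cell markers, Kit among them, summed to 119, 2706 and 13039 CPM in negative and 40.7, 451 and 2734 in positive fractions. The 8 macrophage markers summed to 50.5, 1884 and 6755 CPM in negative and 75.6, 869 and 4814 in positive fractions. In EC that sum was lower in the positive fraction of each pair (1141 CPM fresh, 869 in explants and 974 with cyclopamine). Within HPSC the endothelial sum was 113, 514 and 1048 CPM in the fresh, explant and cyclopamine negative libraries and 4325, 4749 and 2087 in the positive ones. The granulocyte and mast cell sum there was 5663, 13039 and 7294 CPM in negative and 1726, 2734 and 2638 in positive libraries. In the same order the sum of 4 germ cell markers was 252, 749 and 480 CPM in negative and 0, 44.3 and 107 in positive HPSC libraries. No marker of these lists was at 0 over a whole fraction, and their part in the differences between fractions was not tested.

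Other genes of the pathway were taken from 4 lists. Of all tested genes, 40.2% were below 0 in explants, 55.9% with cyclopamine and 43.0% in positive fractions, and edgeR called 0.136%, 0.129% and 0.0554%. Of 44 further mitosis genes, 41 were below 0 in explants against fresh cells (median -0.54), 40 in cyclopamine cultures against fresh cells (-0.42) and 33 in BRE-GFP positive fractions (-0.22), and edgeR called none. Of 39 further replication genes, 33 were below 0 in explants (-0.31), 30 with cyclopamine (-0.18) and 33 in positive fractions (-0.29), again with none called. Smc2 and Smc4, the core of condensin, had the lowest p among the mitosis genes in explants (-0.78 ± 0.20 and -0.75 ± 0.23, edgeR adjusted p = 0.194 and 0.268). Of 18 G1 kinases, phosphatases and E2F genes, 13 were below 0 in explants and 13 with cyclopamine against fresh cells, with none called.

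The inhibitors of the cycle held the 2 pathway genes that passed. Of 21 listed, 19 were tested (Cdkn2a and Cdkn2b were below the filter), and 12 were above 0 in explants (median 0.48) and 14 with cyclopamine (0.46) against fresh cells, where 59.8% and 44.1% of all tested genes were. Btg2, an antiproliferative gene that p53 induces, lay at 90.9, 167 and 247 CPM fresh, 409, 809 and 919 in explants and 253, 862 and 1224 with cyclopamine. Every cultured library lay above every fresh one, as for 0.678% of all tested genes in explants and 0.222% with cyclopamine. Btg2 rose by 2.17 ± 0.23 log2 units in explants (edgeR adjusted p = 0.000539) and by 2.21 ± 0.23 with cyclopamine (adjusted p = 0.000464), against the same 6 fresh libraries. Cdkn1a, which encodes the Cdk inhibitor p21, lay at 6.35, 17.8 and 24.5 CPM fresh, 29.1, 62.5 and 91.9 in explants and 10.7, 34.6 and 72.0 with cyclopamine. Explant libraries lay above all fresh ones, though edgeR did not call it (1.80 ± 0.48, adjusted p = 0.206).

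Cdkn1c, which encodes the Cdk inhibitor p57, had its lowest median in HPSC and its highest in MC. It lay at 62.9, 127 and 459 CPM in HPSC, 121, 301 and 1084 in EC and 377, 693 and 1128 in MC. It fell by 2.28 ± 0.47 log2 units in HPSC against MC (edgeR adjusted p = 0.00525), as Ccnd2 did, and the 2 groups overlapped at their edges. It was the 1 inhibitor of 19 tested that edgeR called there, where 9.95% of all genes tested were called. Against EC it was lower without a call (-1.17 ± 0.47, adjusted p = 0.422). Myc, a driver of cell growth and G1 exit, had the lowest p of the G1 genes in HPSC against MC, at 1.05 ± 0.40 (adjusted p = 0.111).

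Outside these lists, the genes whose level ran closest to the mean of the 41 replication, mitotic and spindle members were named by Pearson r over the 18 libraries, among 9718 genes with a mean of at least 10 CPM. Highest were Hnrnpm (0.80), Ranbp1 (0.79), Zfp706 (0.76), Cbx5 (0.76), Fanca (0.75), Snrpf (0.73), Cdc42se2 (0.71), 6330578E17Rik (0.71), Xpo1 (0.70) and Lin28b (0.70). Cbx5, a heterochromatin protein, lay at 357 to 1045 CPM over the libraries and Ranbp1, a partner of the nuclear transport GTPase Ran, at 101 to 356. The libraries share their scaling and cells, and the r values are given as a description.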

How the data were processed

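RNA of 18 sorted libraries was prepared with the mirVana kit and the SMARTER protocol, per the labels. The deposited files hold whole-number counts per gene made by the authors; TopHat, Cufflinks and HTSeq with mm10 are listed in the submitters' processing notes, and no source used here states their versions, the annotation or the strand setting. Rows for reads at no feature or at several were left out of library sizes (19.5% to 49.4% of reads were at no feature and 0.479% to 0.935% were ambiguous). The test covered genes at 0.796 CPM or above (10 counts in a library of median size) in 3 or more libraries and used edgeR 4.0.16 (R 4.3.3; quasi-likelihood F test, trimmed mean of M values, Benjamini-Hochberg adjustment over 16231 genes, threshold 0.05). Each fit held the matched libraries as blocks: 6 of culture and fraction for populations, 9 pairs for fractions, 6 of population and fraction for cultures. There is 1 library per combination, so the blocks stand in for replicates. Residual degrees of freedom were 6 to 10 and the biological coefficient of variation (common value) was 0.87 to 0.92. Other settings were DESeq2 1.42.0, limma-voom (limma 3.58.1), 2 other scalings, no filter, a covariate, no block and leaving out libraries. The fit was also run on simulated counts with known fold changes, and the share of changes it recovered is not reported here. The members and lists were chosen with earlier results of these data known. Of the members, any could be named, and levels by population were given by rule for those that passed, the D and E cyclins and the 2 of lowest p per role and population comparison. Pathway genes could be named if they passed or were among the 3 of lowest p, with 10 genes of like pattern. Exon lengths (all annotated exons of a gene merged) and gene coordinates are from GENCODE M21 (GRCm38). Gene and antisense partner cannot be told apart where the counting ignored strand.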

Additional observations from a re-analysis of the deposited data

Results flagged for a closer look

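In each population of 6 libraries, the summed level of all members, of each role and the level of the members given by value (27 quantities, 81 groups) were searched for a library far from the other 5, taken as a gap, as a share of the group's range, over Dixon's critical value. The search found 13. The 6 libraries of a group differ in culture and fraction, and the quantities overlap, so no rate expected by chance can be set beside that number.

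In MC, the fresh negative library stood above the others in the summed level of all members (14610 CPM, others 8053 to 9434), in cyclin B1 (Ccnb1, 167 CPM, others 86.5 to 110), in Cdc25c (78.1, others 39.0 to 49.5) and in Cdca8 (261, others 112 to 153). The MC fresh positive library was high for Ccnd1 (155 CPM, others 37.5 to 58.4) and low for Ccne2 (26.0, others 52.9 to 76.9).

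In HPSC, the cyclopamine negative library, of the lowest depth, was at 0 for Ccnd1 (others 11.5 to 90.6 CPM), Ccnd3 (others 10.8 to 40.5) and Foxm1 (others 20.5 to 63.8), and at 0.754 CPM for Cdc25c (others 25.4 to 75.1). The HPSC explant positive library was low for Mki67 (171 CPM, others 330 to 478).

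In EC, the cyclopamine negative library was at 0 for Ccne1 (others 7.55 to 37.7 CPM), and the fresh negative library was high for Cdt1 (43.2, others 7.47 to 14.0).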

How the results depend on the processing

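The Ccnd2 call between HPSC and MC held with every scaling, filter, tool, leave-one-out fit and the fit with no block of matched libraries, and was lost with the share of reads at no feature as a covariate (log2 fold change -1.71, adjusted p = 0.065). Members called between HPSC and MC were 4 with DESeq2, 2 with limma-voom, 0 with the covariate, 5 without each population's library with the fewest genes (EC and HPSC cyclopamine negative, MC fresh positive), and 1 to 3 with 1 library left out (3 without HPSC cyclopamine negative). Between explant and fresh they were 6 with DESeq2 and 1 with limma-voom, and DESeq2 called 1 in cyclopamine against fresh and 1 between fractions of HPSC. With 1 library left out, cyclopamine against explant gave 0 to 2 called members in EC (2 without EC cyclopamine positive) and 0 to 5 in HPSC (5 without HPSC cyclopamine positive). With the covariate, the members' median became -0.28 for cyclopamine against explant, -0.59, -0.44 and -0.47 for the same within EC, HPSC and MC, -0.25 for explant against fresh within HPSC and 0.11 for the fractions of HPSC. Cyclopamine against explant within MC gave -0.074 with upper-quartile scaling, 0.10 with no filter and 0.11 without the libraries of fewest genes. Leaving out 1 library, medians ran from -0.12 to 0.25 there and from -0.45 to 0.20 for cyclopamine against explant within HPSC. For explant against fresh they ran from -0.83 to -0.44 within HPSC, from -0.87 to -0.28 within EC and from -0.70 to -0.13 within MC. Members below 0 numbered 38 to 46, 34 to 45 and 27 to 48 in the same order. For explant against fresh over all populations, 44 to 46 members were below 0 with 1 library left out and 45 with no replicate block. The libraries' labels carry no replicate numbers. Causes of these shifts were not tested. A zero allows up to 1.13 CPM in HPSC cyclopamine negative.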
